A study of Mus musculus with 6 samples.

Results

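The hairpin mmu-mir-143 is the precursor from which a mature microRNA duplex is cut, and mmu-miR-143-5p is the mature strand from its 5′ side. These 2 RNAs, of 10935 measured, are described in RNA pulled down with an antibody to tau phosphorylated at pS396 (CLIP) and in the supernatant left behind. They were picked by name because their CLIP levels had moved in opposite directions between PS19 and wild-type (WT) mice. The CLIP values that chose them are given as a description, without a test, and so is the ratio between genotypes, which contains them. Names were linked to probes by matching the authors' deposited fold changes and p-values, and each of the 2 RNAs was measured by 1 probe. In the authors' deposited table the log2 fold change of the hairpin was -3.32 and that of the arm was 0.96. That of the hairpin includes its WT 2 spot, which is left out below as an outlier.

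The tissue was frozen hippocampus, homogenised and crosslinked with ultraviolet light. PS19 mice express human tau with the P301S mutation from a transgene driven by the mouse prion promoter, which WT mice lack. There were 3 samples per genotype, and all 6 were pulled down with the same antibody on magnetic beads; no control pull-down was analysed here. Age, sex and the number of animals behind a sample are not given in the sources used here, so p-values measure the spread between these samples, which may be technical. On each array the CLIP RNA was labelled with Cy5 and the supernatant RNA with Cy3, from 1 ug each, in the same dye orientation throughout. A dye effect of a probe is therefore part of its ratio.

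Primary transcripts of microRNAs are cut in the nucleus by Drosha to a hairpin, which is exported and cut by Dicer to a duplex. One strand is loaded into an Argonaute protein and directs it to messenger RNAs through its seed, and the other strand is mostly degraded. The mir-143 hairpin is transcribed together with mir-145, and both are known as microRNAs of vascular smooth muscle and pericytes, where they act on the contractile state of the cell. Its 3p strand is usually the dominant product and the 5p strand the minor one. The 3p strand was not analysed here, nor were the hairpin and arms of mir-145a. In tissue RNA of this kind, fewer cells of a type and less RNA per cell cannot be told apart.

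A mature arm is a short piece of its hairpin, as the following examples show. Where on the hairpin an array probe binds is not given in the sources used here. The examples are the hairpins of the 2 pairs that came next after mir-143 in the CLIP difference between hairpin and arm, chosen after their values were seen, with the measured arm in capitals. The sequences are RefSeq entries on GRCm38.p6, mir-350 on the minus strand at chr1:176772325-176772423 and mir-6393 on the minus strand at chr15:87795850-87795943.
mmu-mir-350: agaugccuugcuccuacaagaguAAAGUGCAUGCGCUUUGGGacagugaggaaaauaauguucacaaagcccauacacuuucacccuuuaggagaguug
mmu-mir-6393: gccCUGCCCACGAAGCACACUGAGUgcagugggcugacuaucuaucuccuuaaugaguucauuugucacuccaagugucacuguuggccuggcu
The arm of mir-350 is 19 bases of a hairpin of 99, with the seed AAGUGCA. The arm of mir-6393 is 22 bases of a hairpin of 94, with the seed UGCCCAC. In both cases the arm lies on the 5′ side, as it does in mir-143.

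Per the file headers, 1 scan held WT 2 with PS19 1 and another held PS19 2 with PS19 3. Each of WT 1 and WT 3 had a scan of its own. Supernatant levels correlated by 0.910 to 0.967 within a scan and by 0.736 to 0.855 between scans, over all RNAs tested. The share of RNAs well above background ran from 20.6% to 52.4% in the supernatant and from 6.39% to 34.7% in the CLIP channel. Arrays carry no counts, so the number of arrays limits the precision. WT 1 had the lowest CLIP share.

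Both probes were dim. The raw median signal of the hairpin in the supernatant was 144, 33.5 and 28 scanner units on WT 1 to WT 3 and 34, 28 and 26 on PS19 1 to PS19 3, over a local background of 9 to 15. Its CLIP signal was 116, 23.5 and 43 in WT and 28, 41 and 30 in PS19, over a background of 9 to 15. The hairpin was well above background in both channels on all 6 arrays, and only WT 1 stood clear of the other arrays in both. The arm read 16, 35 and 17 units in WT and 31, 29 and 27 in PS19 in the supernatant. Its CLIP readings were 13, 26 and 16 in WT and 27.5, 32 and 30 in PS19, over a background of 10 to 17. The arm was well above background in the supernatant on every array but WT 1. It was so in the CLIP channel on all 3 PS19 arrays and on WT 2, the WT array that shared a scan with PS19 1. No spot of either probe was saturated.

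**Figure D1:**
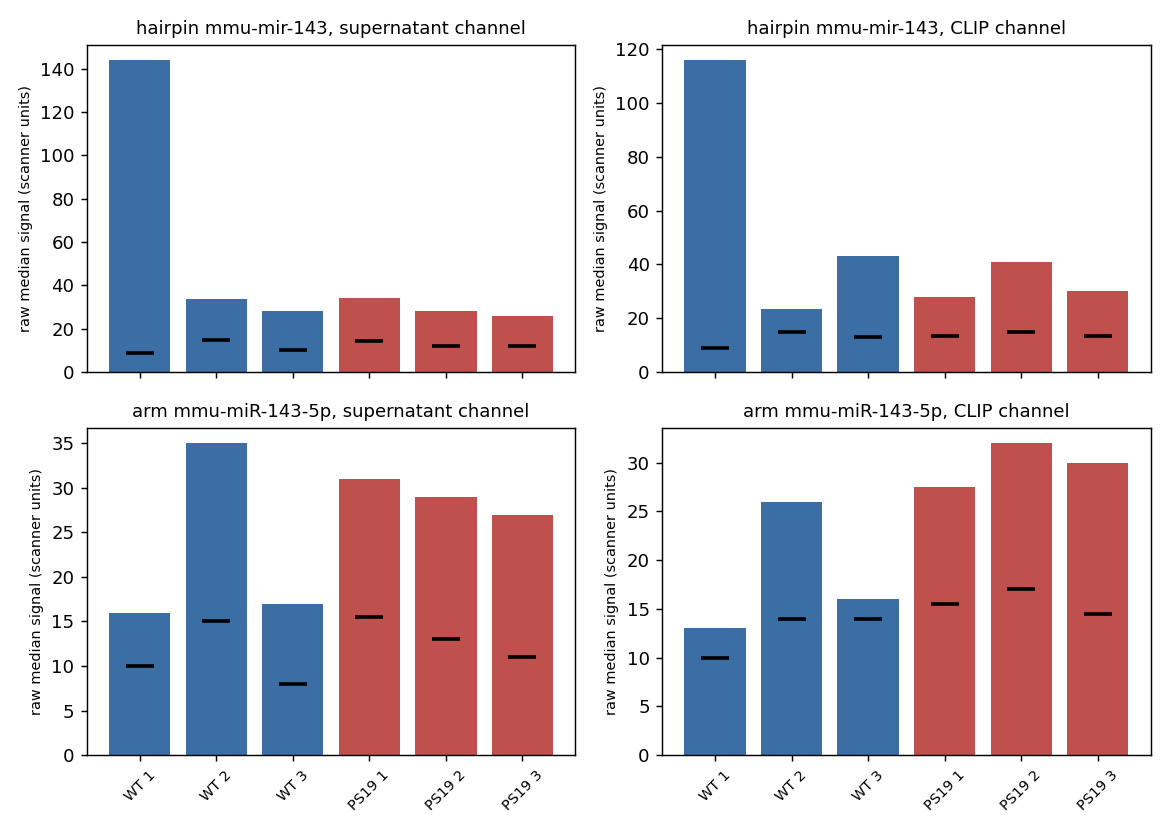
Raw median signal (scanner units, bars from 0) of the hairpin and of the arm on each array, by channel, with the local background as a black mark; WT in blue, PS19 in red. The hairpin bar of WT 1 stands at 144 and 116 units, against 43 units or less elsewhere, while the arm stays at 35 units or less on every array.

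The supernatant measures the RNA that stayed unbound, and its values did not choose the pair. They were read on the same arrays as the CLIP values that did, so they may not be independent of that choice. Its level is the log2 processed signal minus the array's 75th percentile over RNAs well above background on all 6 arrays. The hairpin had log2 supernatant levels of 0.93, -2.26 and -1.73 on WT 1 to WT 3 and of -2.20, -2.03 and -2.85 on PS19 1 to PS19 3. WT 1 was the high array, and WT 2 lay inside the PS19 range, so the genotypes overlapped. The mean was -1.02 ± 1.71 (SD, n = 3) for WT and -2.36 ± 0.43 (SD, n = 3) for PS19. The difference of PS19 minus WT was -1.34 (SE 0.84, 95% interval -3.37 to 0.69), and it did not pass in limma (adjusted p = 0.928) or in an exact two-sided permutation test (p = 0.3). Without WT 1 the difference was -0.37, and with normexp it was -0.21. Within the scan that holds WT 2 and PS19 1 it was 0.053, a pair of arrays with no replicate.

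The arm had log2 supernatant levels of -3.58, -2.81 and -3.48 on WT 1 to WT 3 and of -3.46, -1.78 and -2.45 on PS19 1 to PS19 3. PS19 2 and PS19 3, which shared a scan, were the high arrays, and PS19 1 lay below WT 2. The mean was -3.29 ± 0.42 (SD, n = 3) for WT and -2.56 ± 0.84 (SD, n = 3) in PS19. The difference was 0.73 (SE 0.50, 95% interval -0.48 to 1.93), which did not pass in limma (adjusted p = 0.928) or in the exact two-sided permutation test (p = 0.2). Within the scan of WT 2 and PS19 1 it was -0.65. With 3 samples against 3, the exact test cannot go below 0.1.

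Neither of the 2 RNAs passed at an adjusted p under 0.05 in the supernatant, and none of the 3727 RNAs tested there did (0% in each direction). At an unadjusted p under 0.05 limma had 65 higher (1.74%) and 39 lower (1.05%) in PS19. The median RNA differed by 0.10, so relative to it the hairpin differed by -1.44 and the arm by 0.63. The genotypes overlapped for both, while they lay apart for 7.32% of the RNAs with PS19 higher and for 3.01% with PS19 lower. The hairpin ranked 11 from the lowest among 159 hairpins, and the arm 121 from the highest among 1098 mature arms.

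**Figure D2:**
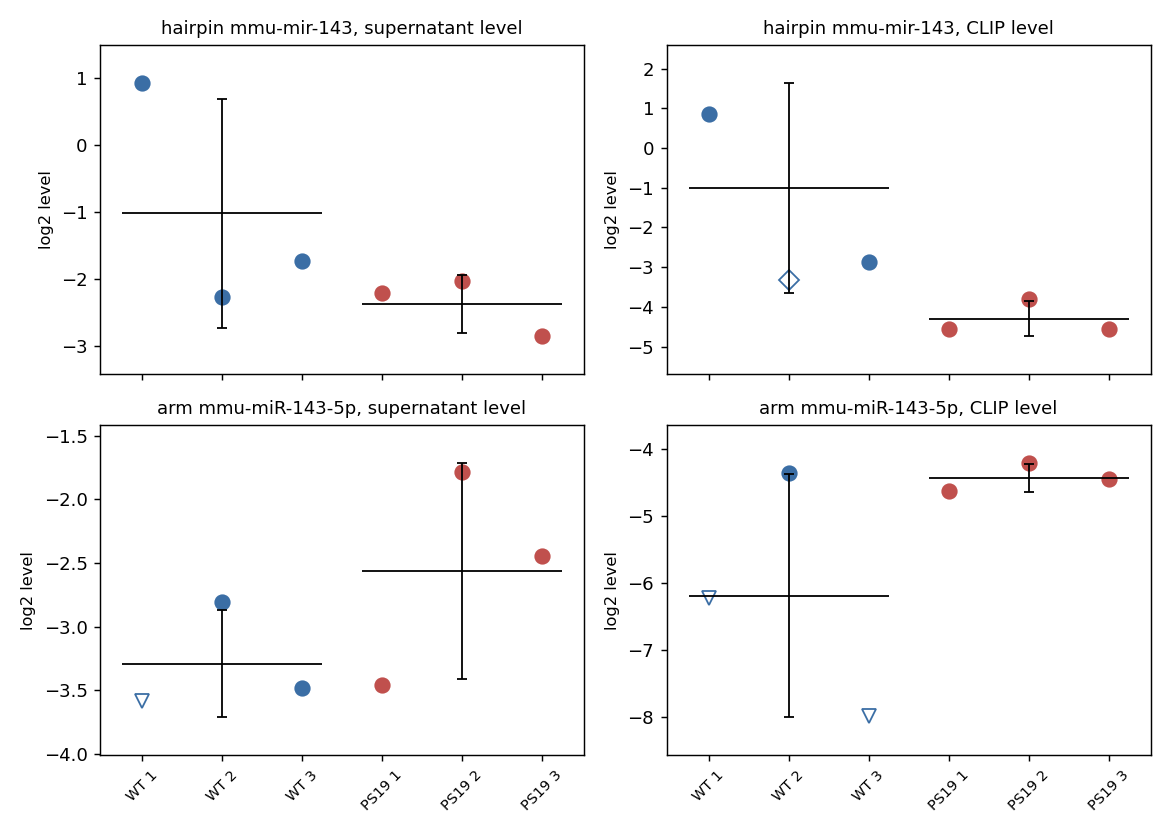
Log2 level of the hairpin and the arm on each array in the supernatant (left) and the CLIP channel (right), with the mean and SD of each genotype; triangles mark spots not well above background, and the open diamond the hairpin's outlier spot, which is left out of the mean. The scale of each panel is its own. In the supernatant WT 1 alone is high for the hairpin at 0.93.

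In the CLIP channel the hairpin was lower and the arm higher in PS19, which is how the pair was chosen. The hairpin had log2 CLIP levels of 0.87 on WT 1 and -2.88 on WT 3, and of -4.56, -3.80 and -4.56 on PS19 1 to PS19 3. On WT 2 the scanner software marked its spot as an outlier, so it has no value there; taken at its signal, it would be -3.32. On this scaling all WT values lay above all PS19 values, with or without that spot. Of the 2356 RNAs tested, 0.934% had genotypes apart in this direction. The authors' values subtract a spike-in offset, 11.89 on WT 2 and 10.45 on PS19 2, from log2 signals of 9.78 and 9.32. There the spot of WT 2 lay below PS19 2, so with it the genotypes overlapped. The mean was -1.01 (SD 2.65, n = 2) for WT and -4.30 ± 0.44 (SD, n = 3) in PS19. Over all RNAs limma called 0 in the CLIP level (0%), and at an unadjusted p under 0.05 it had 45 higher (1.91%) and 6 lower (0.255%). The difference of -3.30 was the lowest of all RNAs tested, which differed by a median of 0.85. It was -2.09 with outlier spots kept, -1.10 with normexp, -1.42 without WT 1 and -5.17 without WT 3. Within the scan of WT 2 and PS19 1, with outlier spots kept, it was -1.19. That value rests on the marked spot of WT 2, with a raw median of 23.5 over a background of 15. On PS19 1 the raw median was higher, at 28 over a background of 13.5. Keeping outlier spots also moved the scaling, so that WT 1 read 0.07 instead of 0.87 and the median RNA differed by 1.28. Relative to the median RNA the hairpin differed by -4.15, and by -3.36 with outlier spots kept.

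The arm had log2 CLIP levels of -6.22, -4.36 and -7.99 on WT 1 to WT 3 and of -4.63, -4.21 and -4.44 on PS19 1 to PS19 3. The 3 PS19 arrays lay close together, WT 2 lay among them, and WT 1 and WT 3, where the spot was not well above background, lay below. Genotypes lay apart with PS19 higher for 4.33% of the RNAs. The mean was -6.19 ± 1.82 (SD, n = 3) for WT and -4.43 ± 0.21 (SD, n = 3) in PS19. The difference was 1.76, or 0.91 relative to the median RNA, and without WT 3 it was 0.86 and without WT 2 2.68. It ranked 44 from the highest among 1124 mature arms and was -0.27 within the scan of WT 2 and PS19 1. With normexp background correction it was -0.15, so the direction of the arm turned with the background correction. The median RNA turned as well, to -0.10, and relative to it the arm differed by -0.05.

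How each RNA was divided between the pull-down and the supernatant, relative to the other RNAs, was read from the log2 ratio of CLIP over supernatant, centred on the median of each array. For the hairpin it was 3.32 on WT 1 and 2.20 on WT 3, and -0.75, 0.67 and 0.63 on PS19 1 to PS19 3. The outlier spot of WT 2, if kept, gave 0.60, which lies inside the PS19 range. For the arm it was 0.74, 0.11 and -1.16 in WT and 0.44, 0.01 and 0.34 in PS19. The hairpin was therefore above the array's median ratio on 4 of the 5 arrays with a value, and the arm on 5 of 6, by at most 0.74.

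The mean ratio over both genotypes was 1.47 for the hairpin (SE 0.30) and 0.080 for the arm (SE 0.25). Both are given without a test, since they contain the CLIP values by which the pair was chosen. With normexp background correction the mean ratio of the hairpin was 0.16. Of the 3971 RNAs tested against a mean ratio of 0, 8 were higher (0.201%) and 1 was lower (0.0252%) at an adjusted p under 0.05. At an unadjusted p under 0.05 it was 231 higher (5.82%) and 226 lower (5.69%). Between genotypes the ratio of the hairpin differed by -2.58 and that of the arm by 0.37, again as a description. That fit called 0 of the 3971 RNAs (0%), and had 83 higher (2.09%) and 82 lower (2.06%) at an unadjusted p under 0.05. With the outlier spot kept and within the scan of WT 2 and PS19 1, the hairpin's difference was -1.34, which rests on that spot. With normexp the hairpin's difference was -0.069. The arm's difference turned to -0.16 without WT 3 and to -0.050 with normexp.

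**Figure D3:**
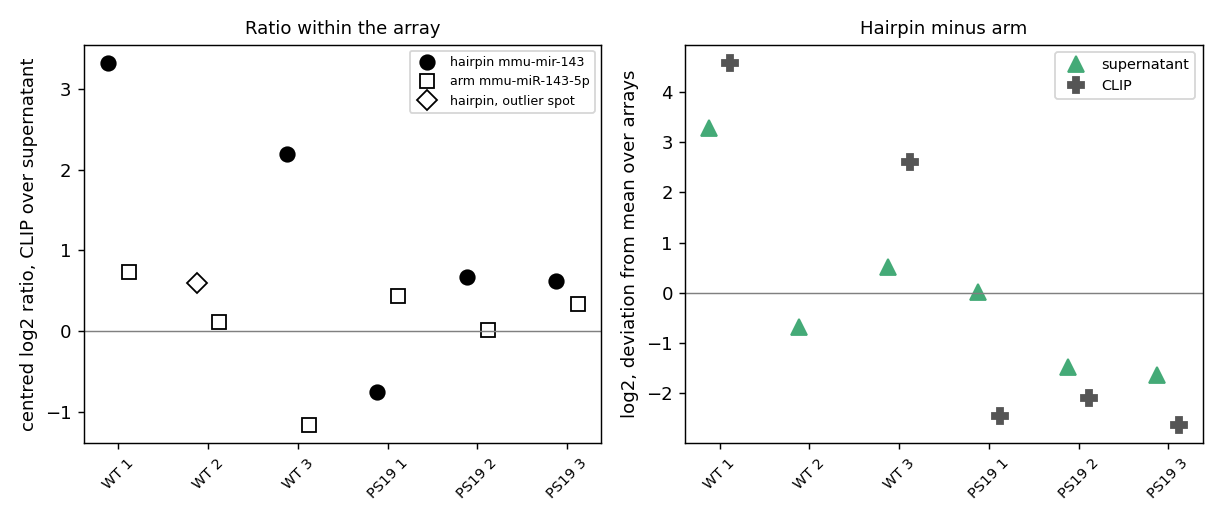
Left, centred log2 ratio of CLIP over supernatant on each array for the hairpin and the arm, with the outlier spot of the hairpin as an open diamond; right, hairpin minus arm on each array as a log2 deviation from its mean over arrays, in the supernatant and the CLIP channel. The hairpin ratios of WT 1 and WT 3 are 3.32 and 2.20, and all others are at most 0.74.

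Setting the hairpin against the arm on the same array needs no scaling between arrays. Only deviations from the mean over arrays are given, since levels of different probes cannot be compared. In the supernatant the deviation was 3.27, -0.68 and 0.51 on WT 1 to WT 3 and 0.02, -1.48 and -1.64 on PS19 1 to PS19 3. WT 1 was the high array. Within the scan of WT 2 and PS19 1 the direction was reversed, with WT 2 below PS19 1, a pair of arrays with no replicate. The genotypes differed by -2.07 (WT 1.03 ± 2.03, PS19 -1.03 ± 0.92, SD, n = 3 each), which did not pass in an exact two-sided permutation test (p = 0.2). With normexp this gap was smaller, as the hairpin's difference shrank from -1.34 to -0.21 and the arm's from 0.73 to 0.42. The CLIP deviation was 4.58 and 2.59 on WT 1 and WT 3 and -2.44, -2.10 and -2.63 in PS19, a difference of -5.98 that is given without a test.

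To see whether a hairpin below its arm in PS19 was usual, the fitted difference of each measured arm was subtracted from that of its hairpin, each over the arrays on which it had a value. In the supernatant there were 159 pairs of 133 hairpins and 157 arms. The other pairs differed by a median of -0.30, with quartiles of -0.72 and 0.18, and mir-143 with -2.07 ranked 6 from the lowest. In 58 pairs the hairpin was lower and the arm higher in PS19, against 18 the other way. Without the mir-143 pair and regardless of pairing, 92 of 158 hairpins were below 0 and 733 of 1097 mature arms above 0. The CLIP channel gave 167 pairs of 136 hairpins and 164 arms, with a median of -0.51 for the others. The mir-143 pair differed by -5.06, where the arm counts on 6 arrays and the hairpin on 5, which is why the value is not the -5.98 found over the 5 arrays they share. It was followed by mir-350 with miR-350-5p at -4.15 and mir-6393 with miR-6393 at -2.98. In 47 CLIP pairs the hairpin was lower and the arm higher, against 10 the other way. Regardless of pairing, 48 of 164 other hairpins were below 0 and 1047 of 1123 other mature arms above 0. Whether the pair counts in either channel go beyond these shares of the classes was not tested. These pairs share the same arrays and 1 hairpin can stand in several of them.

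**Figure D4:**
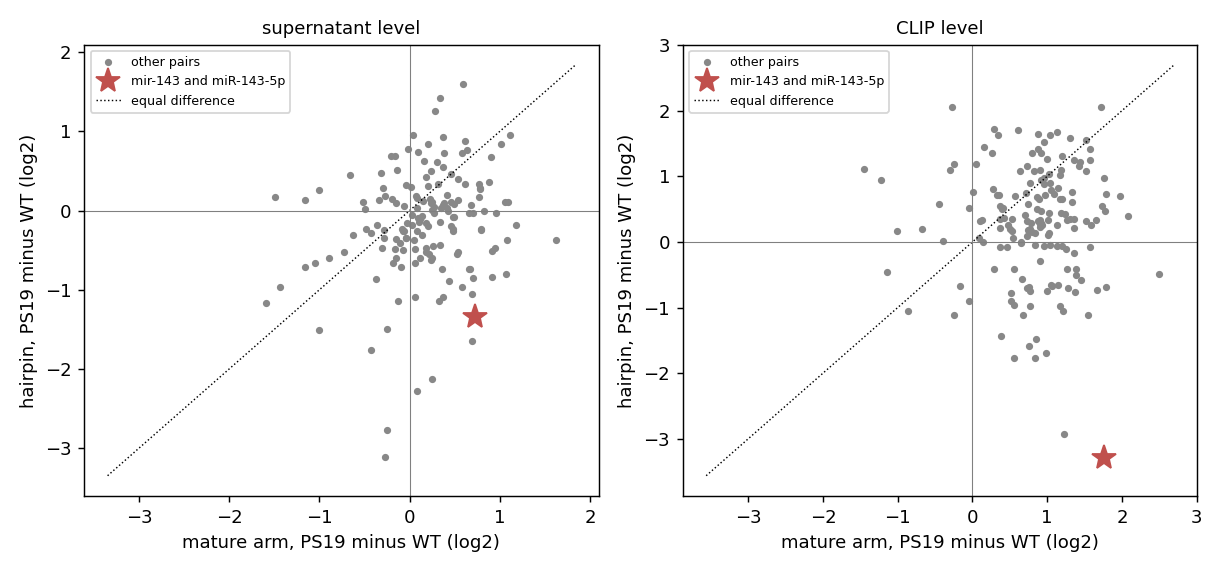
Difference of PS19 minus WT in log2 level of each hairpin (vertical) against that of its mature arm (horizontal), in the supernatant (159 pairs) and the CLIP channel (167 pairs); the dotted line marks equal differences. The mir-143 pair lies below the line in both panels, and in the CLIP panel no pair lies lower.

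The hairpins as a class moved between arrays as well. In the supernatant the median of the other hairpins, as a deviation from each one's own mean, was 1.44 on WT 1, -0.05 on WT 2, -1.26 on WT 3 and between -0.35 and 0.22 on the PS19 arrays. The mir-143 hairpin had 2.62, -0.57 and -0.04 on the WT arrays and -0.51, -0.34 and -1.16 on the PS19 arrays. It shared the high value on WT 1 and not the low value on WT 3. Over the 5 arrays with a CLIP value, it had 3.85 on WT 1, 0.10 on WT 3 and -1.57, -0.81 and -1.57 in PS19. The other hairpins had 1.09 and -2.21 in WT and 1.20, -0.12 and 0.05 in PS19. On PS19 1 the hairpin of mir-143 was therefore low while the median hairpin was high. The part of the class shift in the values of mir-143 was not tested.

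**Figure D5:**
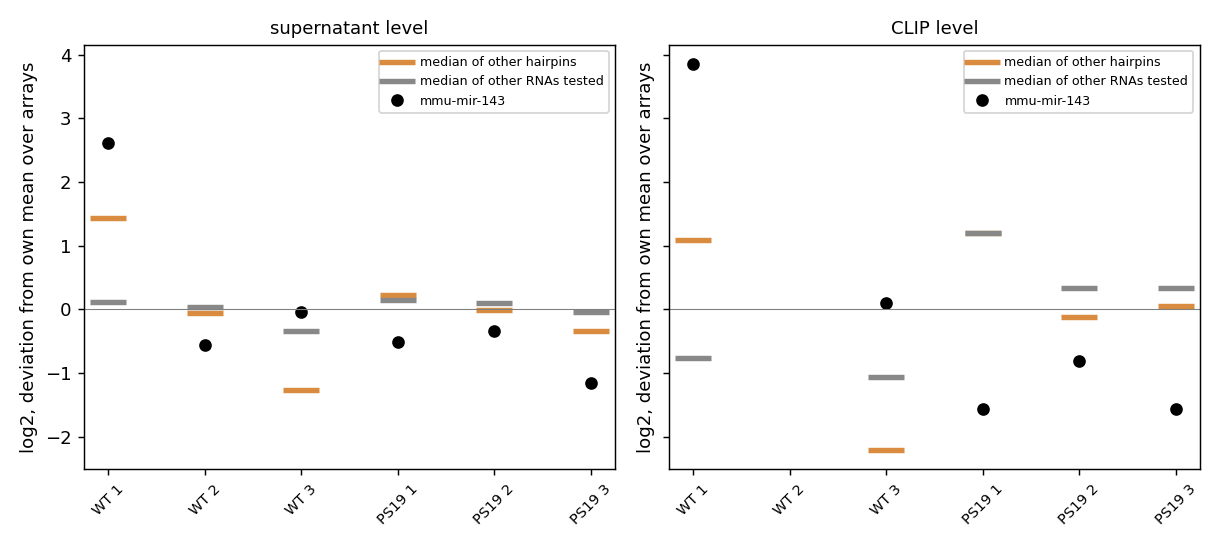
Log2 deviation of mmu-mir-143 from its own mean over arrays (points), beside the median of the other hairpins and of the other RNAs tested (bars), in the supernatant and the CLIP channel; WT 2 has no CLIP value for the hairpin, and the 2 medians coincide on PS19 1 in the CLIP panel. On WT 1 the hairpin is at 2.62 and 3.85, above the other hairpins at 1.44 and 1.09.

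The RNAs with the most similar profiles were named by the root mean square difference of log2 deviations. For the hairpin in the supernatant these were the hairpins mir-7226 (0.29), mir-6965 (0.35) and mir-1945 (0.38), over 6 arrays, against a median of 1.30 over 3667 RNAs. All 3 were high on WT 1. The arm of mir-143 ranked 3278 in this list. For the arm in the supernatant they were miR-7067-5p (0.29) and 2 probes with no name in the sheet, a microRNA probe (0.18) and a tRNA fragment probe (0.31). In the CLIP channel, over 5 arrays, the closest to the hairpin were Gm26368 (0.61), miR-5616-3p (0.73) and the snoRNA Snora35 (0.75), against a median of 2.74. For the arm they were the tRNA fragments tRF3b-TrpCCA-5 (0.10) and tRF5-20-LysTTT-3 (0.12), and Gm23175 (0.15), over 6 arrays.

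The vascular label of mir-143 could be set against few other RNAs. Of the list of vascular mural microRNAs, only miR-145b, named for the mir-145 family, had a value beside the pair. Its log2 supernatant levels were 6.03 and 1.82 on WT 1 and WT 2, and 1.77, 2.80 and 2.51 in PS19, and its WT 3 spot has no value. WT 1 was again the high array. The difference was -1.56 (SE 1.24), which did not pass in limma (adjusted p = 0.928). In the CLIP channel its WT 1 spot has no value, and the difference was -0.33 with WT 2 and WT 3 as the WT arrays. The CLIP difference therefore leaves out the array that was high in the supernatant.

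Endothelial microRNAs were measured as another vascular cell type. Of 11 tested in the supernatant, 10 were above 0 and 0 passed, with a median difference of 0.17 beside 0.10 over all RNAs. Among all RNAs tested there except the pair, 2137 of 3725 were above 0. The summed level of the 11 ran from 0.84 to 1.03 in WT and from 0.99 to 1.14 in PS19. Those with the brightest supernatant probes were miR-23a-5p with a difference of 0.23 (SE 0.33), miR-24-3p with 0.17 (SE 0.29), miR-23b-3p with 0.027 (SE 0.31) and miR-27b-5p with 0.018 (SE 0.28). In the CLIP channel 10 of the 11 were above 0, with a median of 0.77 beside 0.85 over all RNAs, and 0 passed. Among all RNAs tested there except the pair, 2105 of 2354 were above 0. The 1 endothelial microRNA below 0 was miR-27b-3p in both channels, at -0.92 (SE 0.43) in the supernatant and -1.50 (SE 1.04) in CLIP. The 3 smooth muscle growth microRNAs (miR-21a-3p, miR-26a-5p and miR-222-3p) differed by a median of 0.47 in the supernatant, and 0 passed.

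Markers of other cells were measured beside them. Erythroid microRNAs, a sign of blood in the tissue, differed in the supernatant by a median of 0.56 (4 tested, 0 passed). Their summed levels were -1.25 to 0.99 in WT and 0.026 to 0.44 in PS19. This list mixes mature arms with the hairpin mir-486b, whose levels were 0.36, -1.74 and -5.62 on WT 1 to WT 3. The arm miR-144-5p was also low on WT 3, at -4.34. The choroid plexus and neuronal lists hold hairpins as well. Choroid plexus microRNAs differed by a median of 0.32 (10 tested, 0 passed), with summed levels of 3.34 to 3.86 and 3.36 to 4.03. Muscle microRNAs (3 tested, 0 passed) had a median of 0.39, oligodendrocyte microRNAs (2 tested, 0 passed) 0.60, and the microglial miR-155-5p 0.78. Neuronal microRNAs, which mark the tissue, were well above background on all 6 supernatant arrays for 7 of 14 named, with a median of 0.25 and 0 of 13 passed. Their part in the values of mir-143 was not tested.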

How the data were processed

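Small RNA arrays were read in 2 colours, with CLIP RNA in red and supernatant RNA in green, per the labels' protocols. The scanner files hold intensity values from Agilent Feature Extraction 11.0.1.1, background-subtracted and dye-normalised by a linear and a lowess step, per the file headers. The authors' deposited value table holds log2 values of the red channel minus 1 offset per array, equal to the mean of 7 spike-in probes. Their sheet of comparisons holds deposited log2 fold changes and p-values; its direction is PS19 minus WT. All 2380 names matched 1 of 557616 candidate probe sets within 1e-09 in fold change and 1e-07 in p. Names cover 5637 probes, and 8555 stayed unnamed.

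Outlier and control spots were left out. Levels were scaled to the 75th percentile over RNAs well above background on all 6 arrays, and ratios were centred on the array median. RNAs that stood well above background on 3 or more arrays and had 2 or more values per genotype were fitted in limma 3.58.1 under R 4.3.3 (lmFit, then eBayes), 1 mean per genotype, with Benjamini-Hochberg adjustment at 0.05. The fits were also run on simulated data with independent noise on each array. That simulation held no scan effect, so it does not show how the fits behave with the scans of these arrays. The planned test of the mean ratio is not given for the pair, since the ratio contains the CLIP values that chose it. Exact two-sided permutation tests were used for single values of the supernatant. Named RNAs are the pair, up to 4 of each marker list by mean supernatant signal, and the 3 closest profiles. The endothelial miR-27b-3p is named besides, as the only 1 of its list below 0. The pair and the lists were chosen with earlier results of these data known. Alternatives covered scaling, background, filters, variance, the authors' values, blocks and leaving out arrays.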

Additional observations from a re-analysis of the deposited data

How the results depend on the processing

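In the supernatant the hairpin's difference kept its sign under every alternative run except scan as a fixed block (0.053), but it shrank to -0.21 with normexp, -0.57 with no scaling and -0.61 with scan as a random block. Relative to the median RNA it was -0.56, -1.44 and -0.70 there. The arm's kept its sign under every one except scan as a fixed block (-0.65) and as a random block (-0.045), and relative to the median RNA it was 0.061 with normexp. In none did either pass. Leaving out 1 array gave -1.96 to -0.37 for the hairpin, 0.34 to 1.18 for the arm and -2.93 to -0.95 for hairpin minus arm. In the CLIP channel the hairpin differed by -4.93 with spike-in scaling and with the authors' values, where the WT 2 outlier spot is left out, by -2.09 with outlier spots kept, by -1.10 with normexp (offset 50) and by -1.19 with scan as a fixed block and outlier spots kept, an alternative chosen after seeing the data; leaving out 1 array gave -5.17 to -1.42. The arm differed by -0.15 with normexp, -0.27 with scan as a fixed block, -0.16 as a random block and -0.22 with the fixed block and outlier spots kept, and 0.86 to 2.68 with 1 array left out. RNAs passing in the CLIP level numbered 0, but 5 with normexp, 36 with array weights, 13 with scan as a random block, and 0 to 4 with 1 array left out. The mean ratio of the hairpin was 0.16 with normexp and 1.19 to 1.75 with 1 array left out; that of the arm was -0.022 without centring and -0.13 to 0.34 with 1 array left out. RNAs passing in the mean ratio numbered 9, and 0 with normexp, with a variance trend and with scan as a fixed block (outlier spots kept or not), 4 with all 6 arrays required, 5 with scan as a random block and 3 to 7 with 1 array left out. The ratio difference of the hairpin was -0.069 with normexp and -1.34 with the fixed scan block and outlier spots kept; that of the arm was -0.050 with normexp and -0.16 to 0.79 with 1 array left out. The cause of these shifts was not tested. The hairpin's values with the fixed scan block and outlier spots kept rest on its marked WT 2 spot for the difference between genotypes.

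Whether the replicate numbers pair the samples is not given in the sources used here, so they were not used as pairs in the main fits. Same-numbered samples correlated in their deviations by 0.14, -0.43 and 0.46 in the supernatant. These mixed signs, from few arrays that also differ in scan, cannot decide it. With the replicate block the supernatant differences were -1.34 and 0.73, and 3 RNAs passed in the mean ratio. The hairpin minus arm difference was -2.07 (exact sign permutation p = 0.25). With 3 pairs that sign permutation cannot go below 0.25, so it could not pass. The arm has 1 probe, so its probes were not fitted alone, and the fixed scan block gives no CLIP value of the hairpin without its outlier spot.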
